A study of Mus musculus with 7 samples.

Results

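Expression of 9 chemokine ligand genes was examined in the total RNA-seq counts of mouse retina. The genes were Ccl2, Ccl3, Ccl4, Ccl5, Ccl12, Cxcl10, Cxcl12, Cxcl16 and Cx3cl1, chosen by name with earlier results of these data known, and all 9 were found among the 52550 genes of the count table. The 4 WT and 3 SCA7 libraries each came from 1 C57BL/6J mouse of 12.5 weeks, with its 2 retinas pooled. SCA7 mice are homozygous knock-ins that carry an expanded CAG repeat in exon 1 of Atxn7, the gene of the polyglutamine disease spinocerebellar ataxia type 7, and the WT mice carry no knock-in allele. The allele is read from Atxn7's own promoter, so that every retinal cell type carries it from development on, and the retina was taken whole, with no sorting of cells.

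Chemokines are small secreted proteins that bind receptors of the G protein-coupled family on leukocytes and other cells and steer their migration. CC ligands such as Ccl2 and Ccl5 mainly attract monocytes, macrophages and T cells, and Cxcl10 is the classical interferon-induced ligand of Cxcr3. Cxcl12 is made constitutively by stromal and vascular cells, and Cx3cl1 (fractalkine) and Cxcl16 are made as membrane-bound proteins that are released by cleavage. In the retina, Cx3cl1 is known as a neuronal ligand of Cx3cr1, the receptor that marks microglia. The question addressed was which of these ligands differed between WT and SCA7 retina.

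Cxcl10 and Ccl12 were upregulated in SCA7 retina, 7.52-fold and 2.42-fold, from levels in WT retina that were well under 1 CPM (counts scaled to library totals after TMM). Ccl2, Ccl3, Ccl4 and Ccl5 were measured by 26 or fewer counts in any library and had higher means in SCA7 retina. The calls of Ccl2, Ccl3 and Ccl5 depended on the filter on low counts, and Ccl4 was not called. A stricter filter, of at least 10 counts in every library, also removed Cxcl10 and Ccl12. The call of Ccl12 held in 5 of the 7 fits that left out a library. Cxcl12, Cxcl16 and Cx3cl1, the ligands with the most counts, were not called. In whole retina, more cells of a type and more RNA per cell cannot be told apart, nor can fewer cells and less RNA per cell.

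Totals on genes lay between 56497675 and 96635832 counts per library with a median of 67140118, so that 1 count was worth 0.00972 to 0.0187 CPM. The summed level of 6 rod genes was 23494 to 25416 CPM in WT and 7693 to 9898 CPM in SCA7 libraries, rods being the most numerous cells of mouse retina. Atxn7 averaged 39.2 ± 4.26 CPM in WT (SD, n = 4) against 37.6 ± 2.98 CPM in SCA7 retina (SD, n = 3), and counts per gene do not show the repeat. Upregulated (adjusted p under 0.05 and FC (SCA7/WT) above 1.3) were 7.47% and downregulated (adjusted p under 0.05 and FC under 0.7) 7.91% of the 20128 genes tested with edgeR, and the median log2 FC of all of them was -0.02.

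Of the 9 ligands, 5 passed the expression filter and were tested, and the 2 upregulated genes stand against the 7.47% of all tested genes. Cxcl10 passed the filter through the SCA7 libraries, since 1 WT library and all 3 SCA7 libraries were over its level of 0.149 CPM. No ligand was downregulated in the edgeR test, none had a negative change at an unadjusted p under 0.05, and DESeq2 and limma-voom also called 0 lower. In 4 of the 9 (Ccl2, Ccl5, Ccl12 and Cxcl10) every SCA7 library lay above every WT library, a pattern that 12.1% of the genes with at least 1 count showed.

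**Figure D1:**
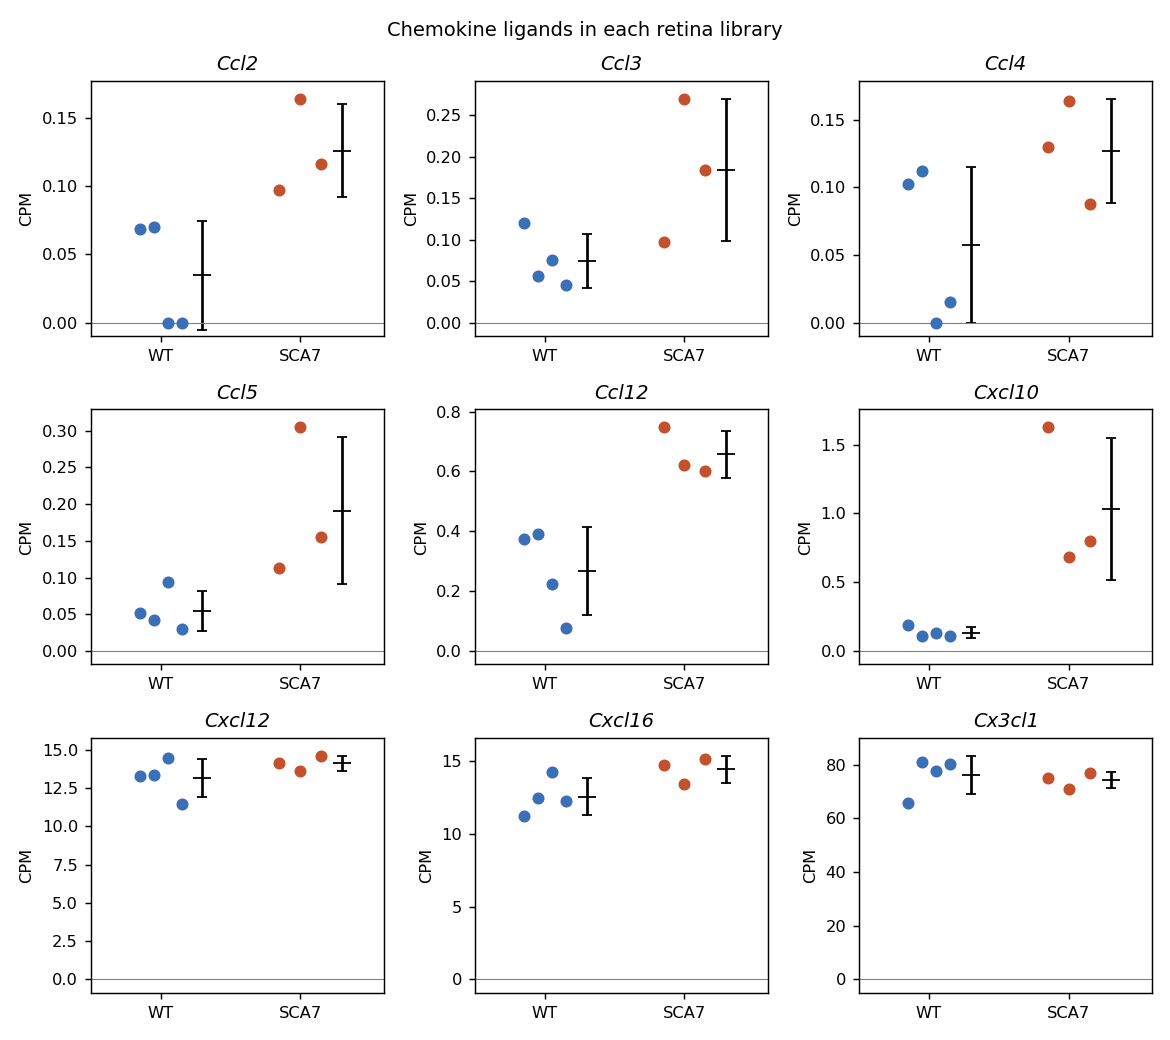
CPM of the 9 ligands in each library (points, left to right replicates 1 to 4 of WT in blue and 1 to 3 of SCA7 in red), with the group mean and SD as black bars, each panel on its own linear axis. For Cxcl10 the SCA7 libraries sit between 0.679 and 1.62 CPM and the WT libraries between 0.107 and 0.188 CPM, whereas for Cx3cl1 the groups overlap.

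Cxcl10, which attracts activated T cells and natural killer cells, lies on the minus strand of chr5:92346638-92348889 (GRCm38). Since it was the ligand with the largest change, the 250 bases upstream of its RefSeq start are shown together with those of the other upregulated ligand, Ccl12, of Ccl3 and, for contrast, of the uncalled Cxcl12. RefSeq (GRCm38.p6) held a start for 5 of the 9 ligands, and each sequence reads 5′ to 3′ on the gene's strand and ends at the base before the start. Capitals mark matches on either strand to GGGNNNTTC, a short form of the site of NF-κB, to GAAANNGAA, a short form of the interferon-stimulated response element, and to TATAAA. The sequences lie at chr5:92348890-92349139 (Cxcl10, minus strand), chr11:82101595-82101844 (Ccl12, plus strand), chr11:83649379-83649628 (Ccl3, minus strand) and chr6:117168285-117168534 (Cxcl12, plus strand).
Cxcl10: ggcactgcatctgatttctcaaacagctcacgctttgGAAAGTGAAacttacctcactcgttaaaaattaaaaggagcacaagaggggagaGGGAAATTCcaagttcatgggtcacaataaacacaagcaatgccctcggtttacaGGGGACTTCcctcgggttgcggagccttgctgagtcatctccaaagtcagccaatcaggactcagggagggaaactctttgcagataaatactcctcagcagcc
Ccl12: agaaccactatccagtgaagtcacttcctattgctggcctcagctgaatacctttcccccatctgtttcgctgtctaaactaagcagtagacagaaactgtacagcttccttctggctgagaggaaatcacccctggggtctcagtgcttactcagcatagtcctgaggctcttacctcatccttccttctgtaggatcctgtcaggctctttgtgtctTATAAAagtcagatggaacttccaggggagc
Ccl3: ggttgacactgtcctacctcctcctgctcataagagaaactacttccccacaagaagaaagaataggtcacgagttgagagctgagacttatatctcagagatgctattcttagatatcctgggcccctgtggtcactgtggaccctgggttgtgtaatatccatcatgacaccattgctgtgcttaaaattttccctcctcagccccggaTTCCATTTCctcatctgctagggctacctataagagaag
Cxcl12: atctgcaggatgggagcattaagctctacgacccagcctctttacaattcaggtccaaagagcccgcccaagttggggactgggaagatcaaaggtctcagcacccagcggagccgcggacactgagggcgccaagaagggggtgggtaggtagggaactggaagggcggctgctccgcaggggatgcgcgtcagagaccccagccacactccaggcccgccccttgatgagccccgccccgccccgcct
The Cxcl10 promoter held 1 match to the interferon element, GAAAGTGAA, which lies 213 to 205 bases before the start. It also held 2 matches to the NF-κB form, GGGAAATTC at 159 to 151 and GGGGACTTC at 104 to 96 bases before the start. Ccl12 held TATAAA at 31 to 26 bases, Ccl3 held the interferon form on its other strand (GAAATGGAA) at 39 to 31 bases, and Cxcl12 held no match. Cx3cl1, the fifth ligand in the table, held TATAAA in the last bases before its start. Of the 32851 upstream regions of the same length in the table, 11.82% held the NF-κB form, 7.129% the interferon form and 12.37% TATAAA, and a match is a string of letters and not a measured site.

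Cxcl10 had 11, 8, 7 and 7 counts in WT replicates 1 to 4 and 100, 58 and 82 counts in SCA7 replicates 1 to 3. On the scaled level this was 0.134 ± 0.0371 CPM in WT (SD, n = 4) and 1.03 ± 0.515 CPM in SCA7 (SD, n = 3). The groups did not overlap, and SCA7 replicate 1 stood at 1.62 CPM against 0.679 and 0.797 CPM in the other two. The log2 FC was 2.91 with SE 0.36 (95% interval 2.12 to 3.70), with an adjusted p of 1.1e-04 (edgeR quasi-likelihood test, Benjamini-Hochberg). It was called whichever library was left out, with log2 FC from 2.46, without SCA7 replicate 1, to 3.14. Cxcl10 lies within Art3, a gene of the opposite strand, and 5.91% of its exonic bases are also exonic in Art3, whose log2 FC was 0.34 (edgeR, adjusted p = 0.21).

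Ccl12 (plus strand, chr11:82101845-82103400), a monocyte attractant that acts through Ccr2, had 22, 28, 12 and 5 counts in WT replicates 1 to 4 and 46, 53 and 62 counts in SCA7 replicates 1 to 3. The level rose from 0.267 ± 0.148 CPM over the WT mice (SD, n = 4) to 0.657 ± 0.0788 CPM over the SCA7 mice (SD, n = 3), with every SCA7 library above every WT library. WT was the more variable group, from 0.0764 CPM in replicate 4 to 0.391 CPM in replicate 2, against 0.602 to 0.747 CPM in SCA7. The log2 FC was 1.28 with SE 0.36 (95% interval 0.49 to 2.06) at an adjusted p of 0.021 (edgeR, Benjamini-Hochberg). The call was lost without SCA7 replicate 1 (adjusted p = 0.076, edgeR) and without SCA7 replicate 2 (adjusted p = 0.052), and held in the other 5 fits that left out a library.

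Ccl2, Ccl3, Ccl4 and Ccl5 did not reach the filter, so their values come from an edgeR fit of all 34726 genes with at least 1 count, in which 4.88% were upregulated and 5 of the 9 ligands were. This fit shrinks the dispersion more strongly than the filtered one, with 59.1 degrees of freedom for Ccl5 against 12.0 for Cxcl12 in the filtered fit. A fit of genes with at least 20 counts in total, added after the data were seen, had 13.4 degrees of freedom for Ccl5, and it called 6.69% of 23961 genes and 4 of the 9 ligands. DESeq2 called 7.19% of the genes to which it gave an adjusted p, and 3 of the 9 ligands.

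Ccl5 (minus strand, chr11:83525778-83530518), an attractant of T cells and monocytes that acts through receptors such as Ccr1 and Ccr3, had 3, 3, 5 and 2 counts in WT and 7, 26 and 16 counts in SCA7 libraries. The means were 0.0544 ± 0.0276 CPM (SD, n = 4) and 0.191 ± 0.1003 CPM (SD, n = 3), without overlap. It was upregulated in all 3 of these fits, with a log2 FC of 1.87 and SE 0.50 (adjusted p = 0.0046) without the filter, adjusted p = 0.015 with at least 20 counts and 0.030 by DESeq2.

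Ccl2 (plus strand, chr11:82035571-82037453), the main ligand of Ccr2 and the leading monocyte attractant, had 4, 5, 0 and 0 counts in WT and 6, 14 and 12 counts in SCA7 libraries. No SCA7 library was as low as the highest WT library, at 0.0699 CPM. The log2 FC was 1.80 with SE 0.63 (adjusted p = 0.040, edgeR without the filter), but adjusted p was 0.078 with at least 20 counts, and DESeq2 gave none after its independent filtering.

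Ccl3 (minus strand, chr11:83647844-83649355) and Ccl4 (plus strand, chr11:83662584-83664683) are neighbouring genes whose products attract macrophages and T cells. Ccl3 had 7, 4, 4 and 3 counts in WT and 6, 23 and 19 counts in SCA7 libraries, and SCA7 replicate 1, at 0.0975 CPM, lay below WT replicate 1, at 0.120 CPM. Its log2 FC was 1.38 with SE 0.47 (adjusted p = 0.033, edgeR without the filter), with adjusted p = 0.046 at 20 or more counts and 0.105 by DESeq2. Ccl4 had 6, 8, 0 and 1 counts in WT and 8, 14 and 9 counts in SCA7 libraries, and was not called in these 3 fits, with a log2 FC of 1.07 and SE 0.58 (adjusted p = 0.248, edgeR without the filter). The interval for Ccl4 ran from -0.10 to 2.24, so that at this depth a change of 4.74-fold upwards was within its bounds.

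The low ligands did not rank the libraries alike. SCA7 replicate 1 was the lowest of its group for Ccl2, Ccl3 and Ccl5 and the highest for Ccl12 and Cxcl10, while SCA7 replicate 2 was the highest for Ccl2, Ccl3, Ccl4 and Ccl5. For Cxcl10, SCA7 replicate 2 was the lowest of its group. In that library Tnf, an inflammatory cytokine, had its highest count, 38, against 3 and 13 in the other SCA7 libraries and 1 to 15 in WT. The granzyme gene Gzma had 24 counts there, against 3 and 12 in the other SCA7 libraries and 2 to 14 in WT. Both genes were named after their values were seen. Il1b, another inflammatory cytokine, had 2 counts in SCA7 replicate 2, against 5 and 11 in the other SCA7 libraries. The summed level of the T and natural killer cell list was 1.35 times the WT mean in SCA7 replicate 2, against 1.36 and 1.31 times in SCA7 replicates 1 and 3. Within WT, replicates 1 and 2 held the higher values of Ccl2, Ccl4 and Ccl12, with 0 to 1 counts of Ccl2 and Ccl4 in replicates 3 and 4. WT replicate 4, whose sample title carries a number from a different range than those of the other 6 libraries, was the lowest WT library for Ccl3, Ccl5, Ccl12, Cxcl10 and Cxcl12. Without it, the log2 FC of Ccl12 was 0.96 (adjusted p = 0.016, edgeR) and that of Cxcl10 was 2.82 (adjusted p = 3.7e-04).

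**Figure D2:**
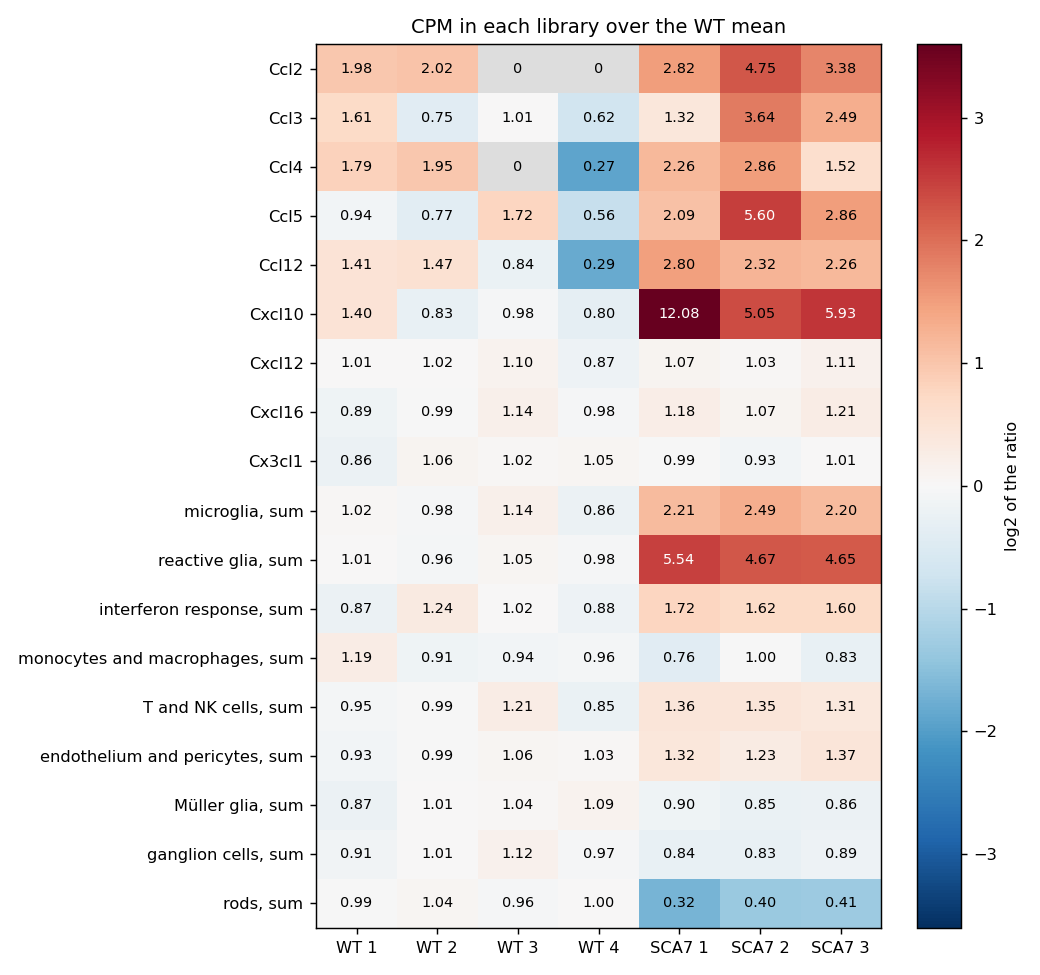
CPM of each ligand, and summed CPM of 9 gene lists, in each library divided by the WT mean (numbers in the cells, colour on a log2 scale, grey where no read was counted). Cxcl10 ranges from 5.05 to 12.08 times the WT mean in SCA7 libraries, the microglial sum from 2.20 to 2.49 times and the rod sum from 0.32 to 0.41 times.

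Cx3cl1 (plus strand, chr8:94772009-94782427) had 3851 to 5801 counts in WT and 4626 to 7914 counts in SCA7 libraries. The level was 76.2 ± 7.11 CPM (SD, n = 4) and 74.3 ± 3.04 CPM (SD, n = 3), and the groups overlapped, with the lowest value of all 7 libraries in WT replicate 1 at 65.8 CPM. The difference was smaller than the spread between mice, with a log2 FC of -0.04 and SE 0.08 (adjusted p = 0.756, edgeR), and its 95% interval ran from 0.870-fold to 1.09-fold.

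Cxcl12 (plus strand, chr6:117168535-117181367), the ligand of Cxcr4 and Ackr3, averaged 13.2 ± 1.23 CPM in WT (SD, n = 4) against 14.1 ± 0.497 CPM in SCA7 retina (SD, n = 3). WT replicates spanned 11.5 to 14.5 CPM and SCA7 replicates 13.6 to 14.6 CPM. The log2 FC was 0.10 with SE 0.08 (adjusted p = 0.386, edgeR), with an interval from 0.948-fold to 1.22-fold.

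Cxcl16 (minus strand, chr11:70453983-70459984), the ligand of Cxcr6 and a scavenger receptor for oxidized lipoprotein, averaged 12.6 ± 1.27 CPM in WT (SD, n = 4) against 14.4 ± 0.920 CPM in SCA7 retina (SD, n = 3). SCA7 replicate 2, at 13.4 CPM, lay below WT replicate 3, at 14.3 CPM. The log2 FC was 0.20 with SE 0.09 (adjusted p = 0.106, edgeR), and the interval from 1.01-fold to 1.31-fold took in the FC threshold of 1.3. Of its exonic bases, 18.3% are also exonic in Zmynd15 of the opposite strand, whose log2 FC was 0.24 (edgeR, adjusted p = 0.229).

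**Figure D3:**
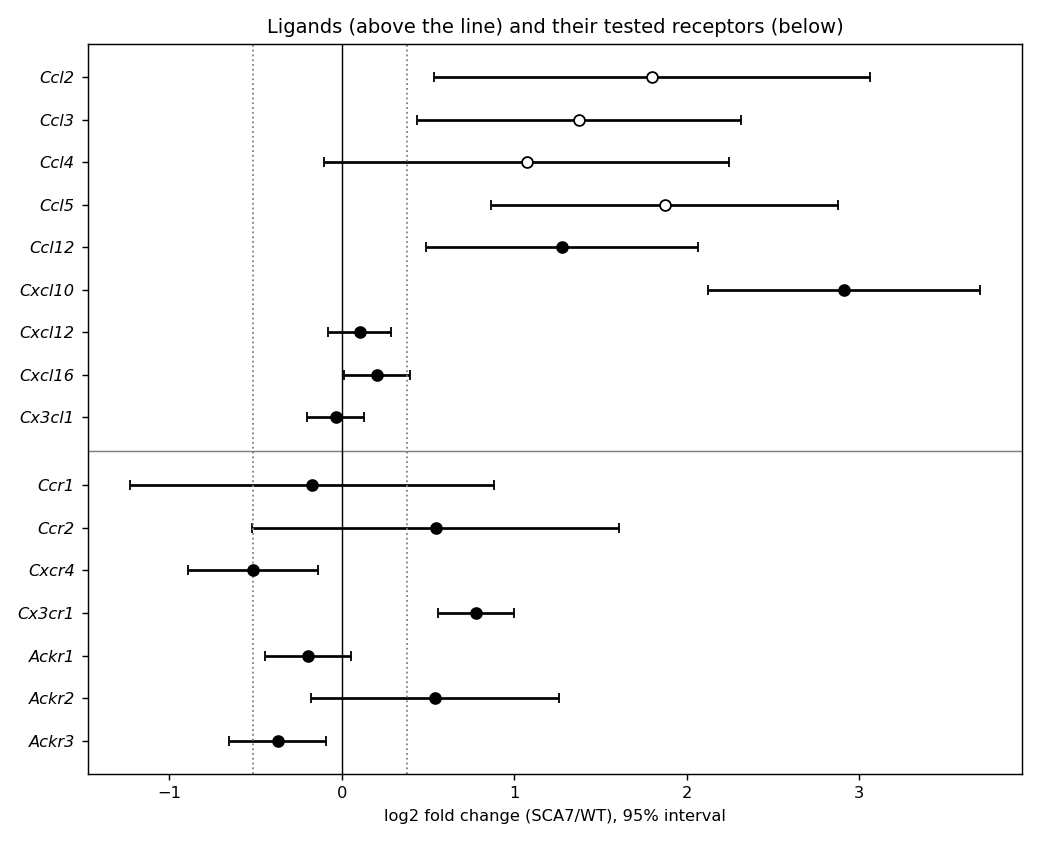
log2 FC (SCA7/WT) with its 95% interval for the 9 ligands and 7 tested receptors of these ligands, from the edgeR fit after the expression filter (filled) or, for Ccl2, Ccl3, Ccl4 and Ccl5, from the fit without it (open). Dotted lines mark FC 0.7 and 1.3, and the interval of Cxcl10 (2.12 to 3.70) lies entirely above that of Cx3cl1 (-0.20 to 0.13).

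Summed over the 6 ligands with few counts, the level was 0.622 ± 0.280 CPM in WT (SD, n = 4) and 2.32 ± 0.445 CPM in SCA7 (SD, n = 3), from 18 to 56 counts per WT library and 173 to 200 per SCA7 library. The ratio of the means was 3.73. These ligands were grouped by their low counts in these data, and Cxcl10 and Ccl12 made up most of the SCA7 sum. Their SCA7 means were 1.03 and 0.657 CPM, against 0.126 to 0.191 CPM for Ccl2, Ccl3, Ccl4 and Ccl5. The 3 abundant ligands summed to 102 ± 7.89 CPM in WT (SD, n = 4) and 103 ± 4.45 CPM in SCA7 (SD, n = 3). The 6 low ligands thus made up 0.606% of the CPM of the 9 ligands in WT and 2.20% in SCA7.

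Compared per length (RPK, size-factor scaled counts per kb of the median transcript), Cx3cl1 was the most abundant ligand in WT retina at 11297 ± 1070 RPK (SD, n = 4). Cxcl16 followed at 522 ± 52.2 RPK and Cxcl12 at 301 ± 28.0 RPK, and the WT libraries of these 3 did not overlap with each other or with the next gene. Ccl12 (36.3 ± 20.1 RPK), Cxcl10 (7.59 ± 2.08 RPK), Ccl3 (6.67 ± 2.93 RPK), Ccl5 (6.25 ± 3.16 RPK), Ccl4 (6.01 ± 6.07 RPK) and Ccl2 (2.50 ± 2.89 RPK) each overlapped with the next in order. In SCA7 retina Cxcl10 stood at 58.9 ± 29.5 RPK and Ccl12 at 89.9 ± 10.9 RPK (SD, n = 3), still below Cxcl12 at 326 ± 13.3 RPK. The lead of Cx3cl1 depended on the length, since the median of its 6 annotated transcripts is 0.466 kb and the union of its exons 3.93 kb. With the union of exons its WT level was 1340 ± 127 RPK (SD, n = 4), which is 4.68 times that of Cxcl16, and the first 4 places were unchanged.

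**Figure D4:**
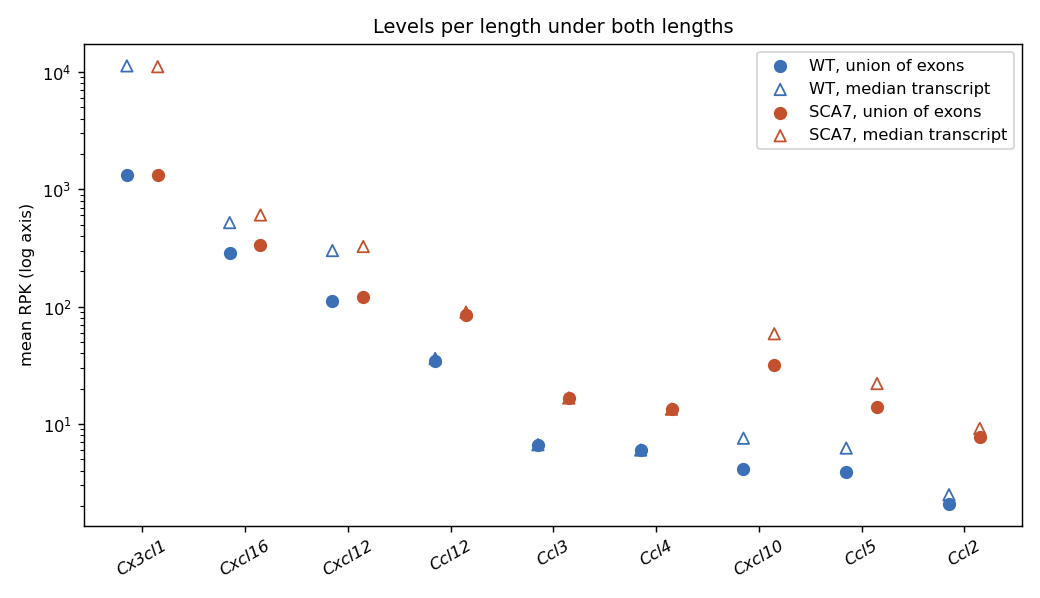
Mean RPK of the 9 ligands in WT (blue) and SCA7 (red) on a log axis, by the median transcript length (triangles) and by the union of exons (circles), ordered by the circles in WT. Cx3cl1 leads under both lengths, with 11297 and 1340 RPK in WT.

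Of 10 receptors of these ligands 7 were tested, of which 1 was upregulated and 1 was downregulated, with a median log2 FC of -0.17 against -0.02 over all genes. Cx3cr1, the microglial receptor of Cx3cl1, had 5.00 to 6.19 CPM in WT and 9.18 to 10.5 CPM in SCA7 libraries, a log2 FC of 0.78 with SE 0.10 (adjusted p = 1.4e-04, edgeR). The groups did not overlap, and it was called whichever library was left out.

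Cxcr4, the signalling receptor of Cxcl12, fell from 1.64 ± 0.242 CPM over the WT mice (SD, n = 4) to 1.14 ± 0.191 CPM over the SCA7 mice (SD, n = 3), with a log2 FC of -0.52 (adjusted p = 0.043, edgeR). The groups overlapped, the FC of 0.699 lay just past the threshold of 0.7, and 2 of the 7 fits that left out a library called it, while DESeq2 and limma-voom did not. Ackr3, the atypical receptor that scavenges Cxcl12, had every SCA7 library below every WT library and a log2 FC of -0.37 (adjusted p = 0.0475, edgeR), short of the FC threshold.

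The monocyte receptor Ccr2 had 2 to 16 counts in WT and 11 to 16 in SCA7 libraries, with a log2 FC of 0.54 (adjusted p = 0.442, edgeR). Ccr1, shared by Ccl3 and Ccl5, had a log2 FC of -0.17 and the atypical receptors Ackr1 and Ackr2 of -0.20 and 0.54, none of them called. Cxcr3, through which Cxcl10 signals, had 1 count in WT replicate 1 and 0 in the other 6 libraries, where a count of 0 allows up to 3 counts. Ccr3 had 2 counts, both in SCA7 replicate 3, and Cxcr6 had 0 to 3 counts per library, so that no difference in these 3 receptors was detectable at this depth.

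The other 27 chemokine ligands were mostly near the detection limit: 18 had at most 10 counts in every library, Ccl20 and Ccl26 had none, and 8 were tested. Ccl6, made by myeloid cells, was upregulated with a log2 FC of 0.85 (0.591 to 1.06 CPM, adjusted p = 0.036, edgeR) and was called in 3 of 7 fits that left out a library. Ccl9, also a myeloid CC ligand, was downregulated from 7.00 ± 1.63 CPM over the WT mice (SD, n = 4) to 1.98 ± 0.239 CPM over the SCA7 mice (SD, n = 3), with a log2 FC of -1.83 (adjusted p = 1.4e-05, edgeR). Pf4, a platelet and macrophage product, fell by 1.87 on the log2 scale (adjusted p = 0.037, edgeR), with overlapping groups, a call in 1 of the 4 fits without a library in which it passed the filter, and no call by limma-voom. Of the 12 other chemokine receptors 5 were tested and edgeR called 0, with 1 higher and 0 lower at an unadjusted p under 0.05 and 0 called by DESeq2 and limma-voom.

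Among 7 genes of shedding and cleavage, the sheddases of Cx3cl1 and Cxcl16, Adam10 and Adam17, were not called, with log2 FC of -0.10 (adjusted p = 0.271, edgeR) and 0.12 (adjusted p = 0.19). Timp1, an inhibitor of metalloproteinases, rose from a WT mean of 0.225 CPM to an SCA7 mean of 1.92 CPM with a log2 FC of 3.13 (adjusted p = 8.6e-06, edgeR), and Rhbdf1, a partner of Adam17, by 0.49 on the log2 scale (adjusted p = 0.0078). Dpp4, a membrane peptidase that cleaves chemokines such as Cxcl10 and Cxcl12, had every SCA7 library below every WT library, with 2.00 to 2.61 CPM in WT and 1.32 to 1.70 CPM in SCA7. Its log2 FC was -0.51 (adjusted p = 0.023, edgeR), and its FC of 0.701 lay just short of the threshold of 0.7, while 4 of the 7 fits that left out a library called it lower. No gene of this list was downregulated in the edgeR test of all libraries, with 2 lower at an unadjusted p under 0.05 and 0 called lower by DESeq2 and limma-voom.

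Of 16 inducing cytokines and their receptors, 11 were tested, 7 of them upregulated and 0 downregulated, with a median log2 FC of 0.57 against -0.02 over all genes. The largest increases were those of Tlr2, a receptor of microbial lipoproteins, with a log2 FC of 1.73 (adjusted p = 1.1e-04, edgeR), and of the Tnf receptor Tnfrsf1a with 1.39 (adjusted p = 1.3e-06). The cytokines themselves did not reach the filter: Tnf had 1 to 38 counts, Il1b 0 to 11, Il6 0 to 2, and Ifng and Ifnb1 at most 1 count per library. Tnf had a log2 FC of 1.03 with SE 1.01 without the filter (adjusted p = 0.566, edgeR), with adjusted p = 0.439 at 20 or more counts and 0.430 by DESeq2. No gene of this list was lower at an unadjusted p under 0.05, and DESeq2 and limma-voom called 0 lower.

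Among 9 NF-κB subunits and feedback genes 3 were upregulated and 2 downregulated, with a median log2 FC of 0.29. Nfkb2 rose with a log2 FC of 1.11 (adjusted p = 5.4e-05, edgeR) and the inhibitor Nfkbie with 0.74 (adjusted p = 5.5e-04), while Nfkb1 fell by 0.56 on the log2 scale (adjusted p = 8.4e-04). Tnfaip3, a deubiquitinase that restrains NF-κB signalling, fell from 260 ± 19.8 CPM over the WT mice (SD, n = 4) to 131 ± 4.65 CPM over the SCA7 mice (SD, n = 3), with a log2 FC of -0.99 (adjusted p = 1.5e-06, edgeR).

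Of 12 genes of the interferon response, 10 were upregulated and 0 downregulated, with a median log2 FC of 0.97, and 11 had every SCA7 library above every WT library, a pattern shown by 19.3% of the genes tested. Gbp2, a guanylate-binding protein, rose with a log2 FC of 1.44 (adjusted p = 5.8e-04, edgeR) and Ifit1, an antiviral effector, with 1.25 (adjusted p = 0.011). The number upregulated was between 6 and 11 under the alternative settings. None was lower at an unadjusted p under 0.05, and DESeq2 and limma-voom called 0 lower.

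**Figure D5:**
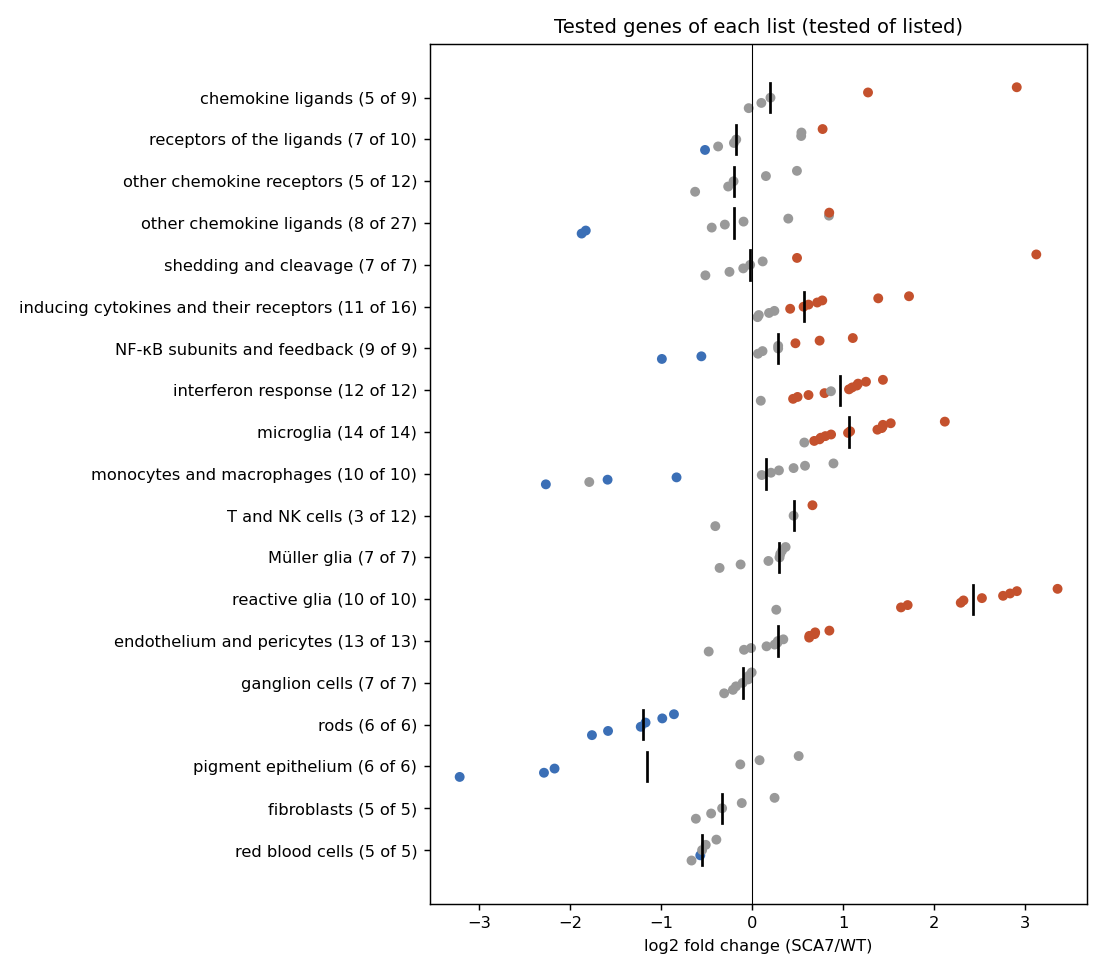
log2 FC (SCA7/WT) of the tested genes of each list (tested of listed in brackets), with upregulated genes in red, downregulated genes in blue, the rest in grey, and the median as a black bar. The interferon response and microglial medians (0.97 and 1.07) lie to the right of 0 and the rod median (-1.20) to the left.

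Markers of cell types that could contribute ligand RNA also differed between the groups. Of 14 microglial markers 13 were upregulated (P2ry12, P2ry13, Tmem119, Csf1r, Aif1, Trem2, Tyrobp, C1qa, C1qb, C1qc, Itgam, Fcrls and Siglech), with log2 FC from 0.58 to 2.12 over all 14, none at 0 counts, and a summed level of 48.5 to 64.5 CPM in WT and 125 to 141 CPM in SCA7 libraries. Of 10 genes of reactive glia 9 were upregulated (Gfap, Serpina3n, Edn2, Fgf2, Socs3, Osmr, Stat3, Cebpd and A2m), with a summed level of 128 to 140 CPM in WT and 618 to 736 CPM in SCA7 libraries. Of 13 markers of endothelium and pericytes 5 were upregulated (Cdh5, Kdr, Tie1, Emcn and Abcc9), with sums of 322 to 368 CPM in WT and 427 to 475 CPM in SCA7 libraries. The part of these cells in the ligand levels was not tested.

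Of 10 genes of monocytes and macrophages 0 were upregulated and 3 were downregulated (Cd163, F13a1 and Lyve1) in the edgeR test, with 0 higher at an unadjusted p under 0.05 and 0 called higher by DESeq2 and limma-voom. The change was positive in 6 of the 10, with a median log2 FC of 0.16, and F13a1 was called in 3 of 7 fits that left out a library. The summed level was 15.9 to 21.0 CPM in WT and 13.3 to 17.5 CPM in SCA7 libraries, and none was at 0 in a whole group. Of 12 genes of T and natural killer cells 3 were tested, and Cd8a was upregulated with a log2 FC of 0.66 (adjusted p = 0.034, edgeR). Cd8a was called in 1 of 7 fits that left out a library and not by DESeq2 (adjusted p = 0.061). The defining markers Cd3e and Cd3g had 0 to 4 counts per library, and the sum of the list was higher in every SCA7 library, with 2.88 to 2.97 CPM against 1.87 to 2.64 CPM in WT. The part of these cells was not tested either.

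All 6 rod markers (Pde6b, Gnat1, Sag, Nrl, Cnga1 and Nr2e3) were downregulated, with a median log2 FC of -1.20. Of 7 Müller glia markers edgeR called 0, with 4 higher and 1 lower at an unadjusted p under 0.05, and DESeq2 called 1 higher and limma-voom 0. Their median log2 FC was 0.30, while their sum went from 3572 to 4475 CPM in WT to 3498 to 3688 CPM in SCA7 libraries. Of 7 ganglion cell markers edgeR called 0, with 3 lower and 0 higher at an unadjusted p under 0.05 and 0 called by DESeq2 and limma-voom. Their log2 FC ran from -0.31 to -0.0037, with sums of 919 to 1127 CPM in WT and 839 to 894 CPM in SCA7 libraries. Of 6 pigment epithelium markers 3 were downregulated (Rpe65, Ttr and Lrat), with sums of 85.3 to 149 CPM in WT and 34.0 to 57.6 CPM in SCA7 libraries. Of 5 fibroblast genes 0 were called, with 0 at an unadjusted p under 0.05 and 0 by DESeq2 and limma-voom, and of 5 red blood cell genes 1 (Hba-a2) was downregulated, with a call in 2 of 7 fits that left out a library.

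Of 14717 genes averaging 1 CPM or more, the profiles most like those of the 3 abundant ligands were found as the smallest root mean square difference of log2 CPM over the 7 libraries, each gene centred on its WT mean. Nearest to Cx3cl1 were Map7d2 (0.0243), Thy1 (0.0302) and 1700019D03Rik (0.0307). Nearest to Cxcl12 were Zfp867 (0.0249), Ctbs (0.0348) and Cyb5r4 (0.0368), and nearest to Cxcl16 were Nalcn (0.0208), Trim32 (0.0250) and Maged1 (0.0268). Thy1 is a marker of ganglion cells and had a mean of 85.0 CPM in WT and of 82.6 CPM in SCA7 retina. The summed level of the ganglion cell list was lower in every SCA7 library than in any WT library. Whether the nearest genes share a cell type with the ligands was not tested.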

How the data were processed

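Total RNA-seq of retina was analysed for 4 WT and 3 SCA7 mice. According to the study's methods and the submitters' processing notes, stranded libraries of RNA depleted of ribosomal RNA were sequenced as single reads, mapped to mm10 with TopHat2 2.0.14 and Bowtie2 2.1.0, and counted per Ensembl gene with HTSeq 0.6.1. The mode and strand option of HTSeq are not given in the sources used here, so reads of overlapping genes cannot be assigned with certainty. The authors deposited raw counts without normalization. Sample titles carry a further number, close together for WT and SCA7 libraries of the same replicate number and from another range for WT replicate 4. The labels do not say what it marks, nor whether mice shared a litter or a preparation day.

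Genes were kept by filterByExpr of edgeR 4.0.16 (R 4.3.3), grouped by genotype, scaled by TMM and compared by the robust quasi-likelihood test, and p-values were adjusted by Benjamini-Hochberg across the 20128 tested genes. Ligands removed by the filter were taken from the fit of all genes with at least 1 count. Alternatives were DESeq2 1.42.0 (size factors, Wald test), limma 3.58.1 (voom), other filters and thresholds, an Xist covariate, a replicate block, and each library left out. Xist had only 4 to 19 counts per library, so that the covariate rests on low counts. The edgeR fits with and without the filter, DESeq2, limma-voom and the replicate block were tried on simulated counts. These counts were modelled on genes that passed the filter, so genes as low as Ccl2, Ccl3, Ccl4 and Ccl5 were not covered. Positions and lengths come from an annotation of GRCm38, which matched 52403 genes.

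Named are the 9 ligands and 10 receptors, up to 2 called genes with the largest increase and 2 with the largest decrease in each other pathway list, in cell type lists the called genes and those near 0, and for ligands of at least 1 CPM the 3 nearest profiles. Ligands and lists were chosen with earlier results of these data known. The values of 3 genes are not reported here, and they were left out of the lists.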

Additional observations from a re-analysis of the deposited data

Results flagged for a closer look

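Among the ligands and their receptors, 2 WT values met the condition for standing apart from the other 3 WT libraries by Dixon's criterion at the 95% level. This criterion marks about 1 in 20 groups of 4 by chance. Ccr1 was at 0.495 CPM (29 counts) in WT replicate 1, against 6 to 11 counts in the other WT libraries. Cxcr3 was at 0.0171 CPM in WT replicate 1, from 1 count against 0 in the others, and since a single count among libraries at 0 always meets the criterion, this value carries no information.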

How the results depend on the processing

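No called value changed direction under the alternatives run. Cxcl10 was called under every one that kept it, with log2 FC from 2.46 to 3.14. The number of upregulated ligands was 2, and became 5 without the filter, 4 with at least 20 counts in total (chosen after seeing the data), 1 at an adjusted p under 0.01, and 0 with at least 10 counts in every library, which removed Cxcl10 and Ccl12. Leaving out a library gave 1 (without SCA7 replicate 2, Cxcl10) to 3 (without SCA7 replicate 1, where Ccl3 and Ccl5 passed the filter through the SCA7 libraries alone). DESeq2 gave no adjusted p for Ccl2. Downregulated genes of the pathway lists numbered 5, became 3 with limma-voom, 3 at an adjusted p under 0.01 and 8 with no FC threshold, and leaving out a library gave 2 (without WT replicate 3) to 5, with 3 without SCA7 replicate 1 and 3 without SCA7 replicate 3. Without the FC threshold 2853 genes of the whole table were higher and 2852 lower, against 1504 and 1592. Cx3cl1 over Cxcl16 in WT was 21.7 by median transcript length and 4.68 by the union of exons. Whether replicate numbers pair the samples was not settled. Same-numbered libraries had correlations of 0.0096, 0.197 and 0.0787, and libraries of different numbers had correlations from -0.203 to 0.135. With the replicate number as a block, 1629 genes were higher and 1706 lower, 2 ligands were upregulated, and Ccl12 had a log2 FC of 0.99 (adjusted p = 0.0054, edgeR). Depth limits Ccl2, Ccl3, Ccl4 and Ccl5, measured by 0 to 26 counts per library.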
